A study of Rattus norvegicus with 65 samples.

Results

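Scaf1, Rab14, Cnot10, Sh3d19, Purb and Fitm1 are the 6 genes described here, which set rat mammary tumor lines apart. They were chosen with their measured values known, from the 10 genes at the top of a ranking by how much of the variance of the brightest probe set lay between lines. They are 6 of 10411 genes on the array and are read by 11 of its 15866 probe sets that are not controls. Of those 11 probe sets, 9 passed the filter on low values that 11899 probe sets passed. Shares of the members' brightest probe sets ran from 92.6% for Cnot10 to 89.9% for Fitm1, which was the last of the 10, and the next genes down were Pdcd6ip (89.6%) and Mtpn (89.2%). The median share over all probe sets tested was 42.9%. Levels between lines are therefore given as a description, with no test.

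The tumors were first induced by a carcinogen in rats and then passed serially through syngeneic hosts. Each of the 11 lines is called a series and is numbered 10, 13, 17, 19, 25L, 25R, 32, 33, 34, 36 or 42. A series holds its primary tumor and the tumors of transplants 1 to 5, with 1 array each, except that transplant 5 of series 10 was not analysed here, which leaves 65 arrays. The carcinogen, the rat strain, the hosts' age and the invasive behaviour of single tumors are not given in the sources used here, nor is whether 25L and 25R came from 1 animal. There was no normal mammary tissue to compare with, and p-values measure only the spread between these tumors.

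The members act at different levels of the cell. Scaf1 encodes a protein related to the SR splicing factors that binds the tail of RNA polymerase II. Cnot10 encodes a subunit of the CCR4-NOT complex, which shortens the poly(A) tails of mRNAs and so speeds their decay. Purb encodes a protein that binds purine-rich single strands of DNA and RNA and is known as a repressor of smooth muscle actin. Rab14 is a small GTPase that directs vesicles between the Golgi apparatus and endosomes. Sh3d19 is an adaptor whose SH3 domains bind ADAM proteases, the enzymes that release growth factors from the cell surface. Fitm1 is a protein of the endoplasmic reticulum that takes part in forming lipid droplets and is best known from skeletal muscle.

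Promoter windows from RefSeq (assembly GRCr8, 250 bases before to 50 after a transcription start) are shown for the pair of members that moved in opposite directions, Scaf1 and Rab14, and for Purb and Fitm1, which both stood high in 1 line. All 6 members matched an entry. Each is printed 5′ to 3′ on the gene's strand, in lower case, with the GC box (GGGCGG, or its reverse complement on the other strand) in capitals. The windows are chr1:104634983-104635282 (minus strand) for Scaf1, chr3:38911635-38911934 (minus strand) for Rab14, chr14:85558730-85559029 (minus strand) for Purb and chr15:33034455-33034754 (plus strand) for Fitm1.

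Scaf1: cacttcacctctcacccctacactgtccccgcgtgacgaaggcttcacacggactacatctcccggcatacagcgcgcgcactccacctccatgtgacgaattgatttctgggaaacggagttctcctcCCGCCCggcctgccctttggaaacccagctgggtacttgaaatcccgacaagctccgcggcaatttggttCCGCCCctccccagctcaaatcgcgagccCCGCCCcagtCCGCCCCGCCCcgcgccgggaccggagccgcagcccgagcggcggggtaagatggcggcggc
Rab14: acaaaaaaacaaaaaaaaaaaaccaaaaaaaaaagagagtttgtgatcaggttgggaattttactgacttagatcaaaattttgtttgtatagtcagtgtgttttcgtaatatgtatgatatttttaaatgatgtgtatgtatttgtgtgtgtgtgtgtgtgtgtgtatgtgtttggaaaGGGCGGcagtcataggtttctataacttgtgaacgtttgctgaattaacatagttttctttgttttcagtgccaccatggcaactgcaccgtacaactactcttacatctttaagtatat
Purb: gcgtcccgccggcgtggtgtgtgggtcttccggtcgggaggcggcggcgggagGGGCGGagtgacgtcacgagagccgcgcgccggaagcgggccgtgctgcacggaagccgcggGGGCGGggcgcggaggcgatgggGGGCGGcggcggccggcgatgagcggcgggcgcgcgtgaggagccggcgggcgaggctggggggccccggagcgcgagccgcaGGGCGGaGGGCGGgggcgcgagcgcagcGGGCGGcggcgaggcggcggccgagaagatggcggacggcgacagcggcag
Fitm1: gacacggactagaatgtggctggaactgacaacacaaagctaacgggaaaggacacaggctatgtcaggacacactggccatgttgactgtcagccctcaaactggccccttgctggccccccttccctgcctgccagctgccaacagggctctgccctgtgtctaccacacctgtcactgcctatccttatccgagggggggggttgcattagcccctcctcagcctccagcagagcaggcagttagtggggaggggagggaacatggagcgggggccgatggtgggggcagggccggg

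The windows differed in composition. Scaf1 had 66.0% G and C and 5 GC box matches on either strand, of which the last pair shares a letter. Purb had 82.7% and 6 matches, Fitm1 62.0% and 0 matches, and Rab14 32.3% and 1 match, against a median of 51.7% over 33469 promoter windows. The GC box was found in 33.1% of those windows, the E-box (CANNTG) in 72.1%, the CCAAT box (its 5 letters as named) in 37.5% and the TATA box (TATAAA) in 14.2%, on both strands. None of the 4 windows held a CCAAT or TATA box. The E-box occurred 2 times each in Scaf1 and Fitm1, 1 time in Rab14 and 0 times in Purb. The Rab14 entry starts 8888 bases inside the gene's outer annotated end. Its composition and matches are therefore those of a site within the gene and do not describe the sequence before its outer start. A match is a description of the letters and does not show that a factor binds there.

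Arrays were scaled to equal medians. Intensities under 39.8 were raised to that floor, which is 5.31 on the log2 scale used for means and differences. Over the 11899 probe sets tested, 82.9% differed among series (limma adjusted p below 0.05), the 9 tested probe sets of the members among them. The members were chosen on that contrast, so nothing is read from their count. The levels split into 2 patterns, which did not exclude each other. Cnot10, Purb, Sh3d19 and Fitm1 set series 42 apart from the other 10 lines, and Scaf1 and Rab14 divided the lines into groups.

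**Figure D1:**
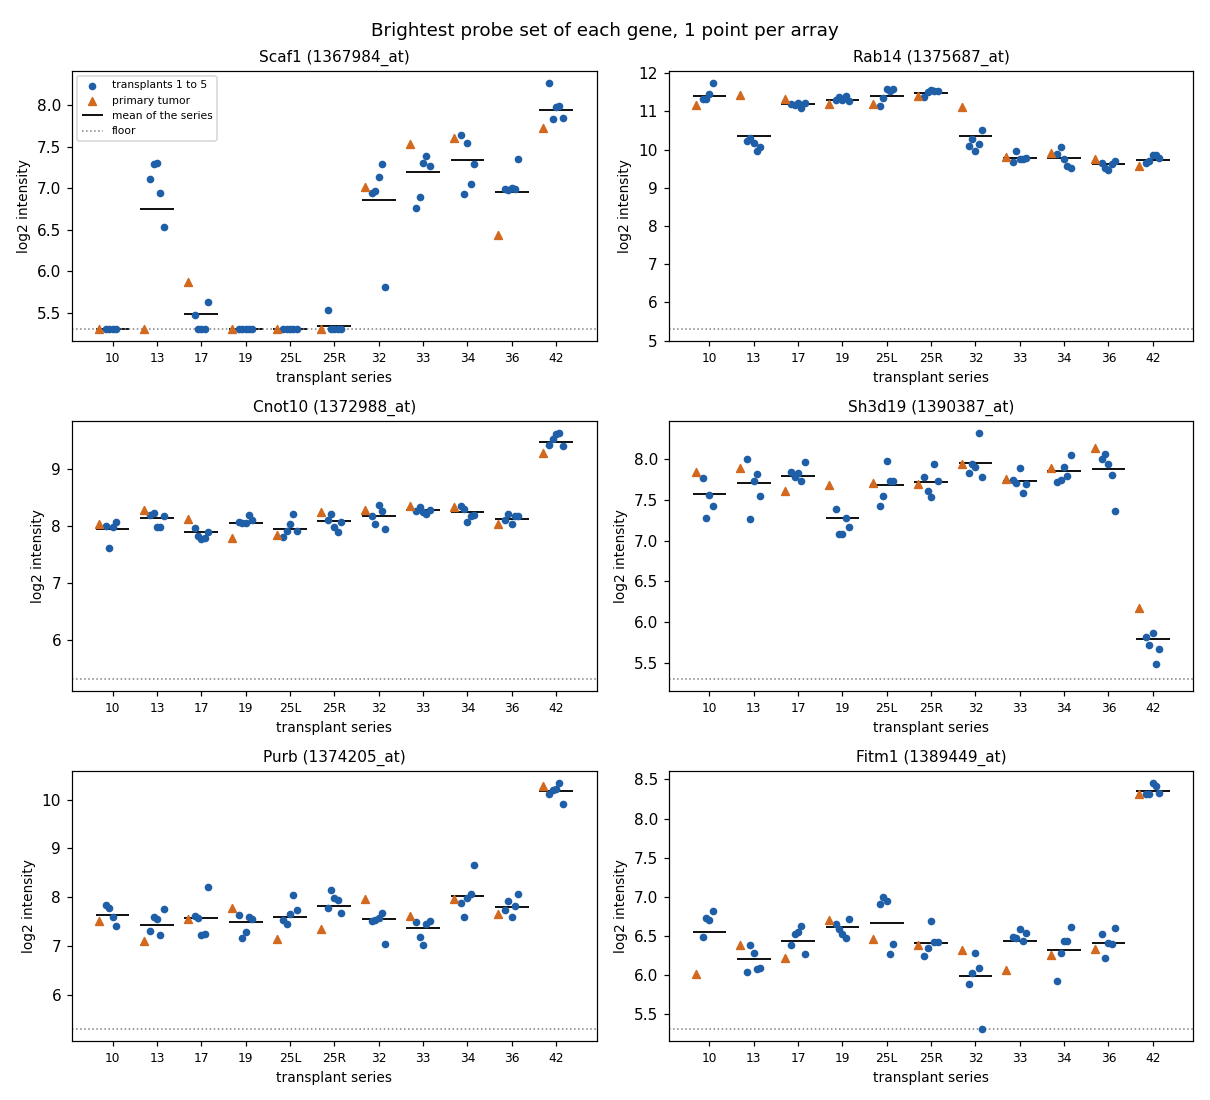
Log2 intensity of the brightest probe set of each gene (y axis) in the 11 series (x axis), with 1 point per array, triangles for primary tumors, circles for transplants, a bar for the mean of the series and a dotted line for the floor. Cnot10, Purb and Fitm1 are higher and Sh3d19 is lower in all 6 arrays of series 42 than in any other array, while Scaf1 and Rab14 divide the series in opposite directions.

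Cnot10 was read by 1 probe set (1372988_at). In series 42 its intensity was 616 in the primary tumor and 681, 729, 779, 785 and 671 in transplants 1 to 5. The other 59 arrays lay between 196 and 329, so the groups did not overlap. The mean was 9.47 ± 0.14 on the log2 scale (SD, n = 6 arrays) in series 42 and 7.89 to 8.27 in the other series, a level 2.61-fold higher than the mean of the other 10 lines. Without series 42, the share of Cnot10's variance between lines was 52.3%.

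Purb was brightest on 1374205_at, at 1241 in the primary tumor of series 42 and 1106, 1176, 1195, 1289 and 955 in its transplants. Elsewhere the range was 130 to 409, with the highest value in transplant 5 of series 34. The mean log2 level was 10.17 ± 0.15 (SD, n = 6 arrays) in series 42 against 7.38 to 8.03 in the other series, which is 5.81-fold higher than the mean of the other lines. Without series 42 the share between lines was 37.0%, below the median of 42.9% of all probe sets tested.

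Sh3d19 went the other way on its 1 probe set (1390387_at). Intensities in series 42 were 72.5 in the primary tumor and 56.4, 52.6, 58.5, 45.0 and 51.1 in the transplants, all above the floor. The other arrays ran from 135 to 317. The mean was 5.79 ± 0.23 (SD, n = 6 arrays, log2) in series 42 and 7.28 to 7.94 in the others, 3.79-fold lower than their mean. Among the other lines, series 19 was lowest at 7.28 ± 0.23 (SD, n = 6 arrays). Its 6 arrays (135 to 205) overlapped those of series 10 (155 to 229), so these neighbours in the order did not differ beyond their spread.

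Fitm1 (1389449_at) stood at 319, 320, 316, 349, 343 and 322 in the primary tumor and transplants 1 to 5 of series 42. The spread there was the narrowest of the members, 8.36 ± 0.06 (SD, n = 6 arrays, log2). In the other 59 arrays the intensity ran from 33.5, the one value under the floor, to 128, and series means lay between 5.99 and 6.67. Series 42 was 3.87-fold higher than the mean of the others.

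Over the whole array such a separation was uncommon. All 6 arrays of series 42 lay above every other array for 2.97% of the probe sets tested and below every other array for 1.82%. For each of the other 10 series these percentages were 0, apart from 0.00840 above in series 33 and 0.00840 each way in series 36, which is 1 probe set. The members were chosen for their spread between lines, so their place among these probe sets carries no further weight. Cnot10, Purb, Sh3d19 and Fitm1 kept this separation in series 42 without rescaling of the arrays, with quantile normalization and with another floor. The order of the other 10 lines differed from pair to pair among these 4 genes. Across the 10 series means without series 42, Pearson's r with Cnot10 was 0.08 for Purb, 0.35 for Sh3d19 and -0.55 for Fitm1. It was 0.34 between Sh3d19 and Purb, -0.66 between Sh3d19 and Fitm1 and 0.00075 between Purb and Fitm1. Over all 11 series means the same pairs gave 0.94, -0.89, 0.87, -0.91, -0.97 and 0.93. The sign differed between these 2 settings for Sh3d19 with Cnot10, for Sh3d19 with Purb and for Fitm1 with Cnot10. Without series 42, r with Scaf1 was 0.87 for Cnot10, 0.61 for Sh3d19, 0.12 for Purb and -0.64 for Fitm1. With Rab14 on its brightest probe set it was -0.80, -0.57, -0.15 and 0.50. Beside its high level in series 42, Cnot10 thus also followed the division of the other 10 lines by Scaf1 and Rab14.

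The labels call every sample a mammary tumor, and luminal epithelial markers were low in series 42. Krt18 and Krt19, keratins of luminal epithelium, were at the floor in all 6 of its arrays, Epcam and Cdh1 were at the floor in 4 of 6, and Krt8 did not exceed 6.56 (log2). In the other 59 arrays the medians were 10.62 for Krt18, 11.24 for Krt19, 11.27 for Epcam, 10.50 for Cdh1 and 11.38 for Krt8. Some of these arrays were at the floor too: 4 for Krt18, 4 for Krt19, 1 for Epcam, 3 for Cdh1 and 2 for Krt8. Of 12 luminal markers, 6 were at the floor in every array of series 42: Krt18, Krt19, Tspan8 and the claudins Cldn3, Cldn4 and Cldn7. The summed intensity of the 12 markers was 546 to 634 in series 42 and 771 to 27488 elsewhere. The summed intensity of basal myoepithelial markers was 921 to 2469 in series 42 and 1321 to 20763 elsewhere (median 8560). Macrophage markers summed to 10766 to 15956 in series 42 and 3693 to 15641 elsewhere (median 6655), and Lyz2 among them lay above every other array, at a mean of 12.82 against 10.27 to 11.61 (log2). In whole tumors, fewer cells of a type and less RNA per cell cannot be told apart, and the part of these marker levels in those of Cnot10, Purb, Sh3d19 and Fitm1 was not tested.

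Skeletal muscle markers were given beside Fitm1, since muscle expresses it. The summed intensity of 17 muscle genes was 3298 to 12318 in series 42, with a median of 1952 in the other arrays. In the other lines, 7 arrays reached the lowest sum of series 42, with sums of 3525 to 20597, and Fitm1 was 65.9 to 128 in them. The array with the highest sum, transplant 3 of series 25L at 20597, had a Fitm1 intensity of 123. Fitm1 was at least 316 in series 42 and at most 128 in the 7 arrays of other lines that reached its lowest sum. Des and Unc45b, muscle genes outside the list that are named below for their likeness to Fitm1, were higher in series 42. The mean of Des was 11.49 there against series means of 6.86 to 7.18 (log2), and that of Unc45b 8.02 against 6.51 to 7.05. Both were picked for their likeness to Fitm1, so their level in series 42 follows from the choice. Of the 10 tested genes of the muscle list, 0 had all arrays of series 42 above every other array. The part of muscle tissue in the level of Fitm1 was not tested. Over the 59 arrays outside series 42, Pearson's r between Fitm1 and the muscle sum was 0.35. Of the muscle list, Myh4 and Actn3 were at the floor in all arrays of series 42. The adipocyte list did not separate series 42, at sums of 405 to 1548 against 273 to 5135 elsewhere.

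Scaf1 was read by 1 probe set (1367984_at) and was at the floor in 26 of 65 arrays. All arrays of series 10, 19 and 25L lay under the floor, as did 5 of 6 in series 25R and 3 of 6 in series 17. In those 5 lines no intensity exceeded 58.4, the primary tumor of series 17. Series 33 read 109 to 185, series 34 122 to 201, series 36 86.5 to 164 and series 42 212 to 308. In series 32 the primary tumor was at 130 and the transplants at 123, 126, 141, 157 and 55.9. The last of these lay inside the range of the low lines. Means in the higher lines were 6.86 ± 0.53 in series 32, 7.20 ± 0.29 in series 33, 7.35 ± 0.30 in series 34, 6.96 ± 0.30 in series 36 and 7.94 ± 0.19 in series 42 (SD, n = 6 arrays each, log2). Series 42 lay above all other arrays here too, except without rescaling of the arrays, where it overlapped them.

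Rab14 on its brightest probe set (1375687_at) divided the same lines in the opposite direction. Series 10, 17, 19, 25L and 25R read 2195 to 3417, with means of 11.20 to 11.48 (log2). Series 33, 34, 36 and 42 read 707 to 1064, with means of 9.62 to 9.79. No array of any series lay between 1462 and 2195. Within the first group neighbouring means differed by less than the spread between arrays, for example 11.40 ± 0.22 (SD, n = 5 arrays) in series 10 and 11.40 ± 0.20 (SD, n = 6 arrays) in series 25L. Pearson's r between Scaf1 and Rab14 was -0.92 over 65 arrays, -0.96 over 11 series means and -0.45 over arrays after each series mean was removed. The arrays share their line, their scaling and their processing.

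Series 13 and 32 were divided within themselves. In series 13 the primary tumor had a Rab14 intensity of 2752, and its transplants had 1194, 1251, 1146, 1003 and 1072. Scaf1 was 2.4 in the same primary tumor and 138, 158, 159, 123 and 93.4 in the transplants. Both genes thus placed the primary tumor of series 13 with one group of lines and its transplants with the other. In series 32 the primary tumor had a Rab14 intensity of 2222 and the transplants 1099, 1246, 996, 1135 and 1462, while its Scaf1 value of 130 lay inside the range of the transplants. Without both primary arrays the share of variance between lines rose to 94.4% for Scaf1 and 97.1% for Rab14.

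These 2 primary arrays also differed from their lines over the other genes. With the members left out, each array was correlated with the mean of every series over 11890 probe sets, leaving the array itself out of its own series. The primary array of series 13 was closest to series 19 (r = 0.49), with its own line in place 5 (r = 0.24). The primary array of series 32 was also closest to series 19 (r = 0.44), with its own line in place 8 (r = -0.21). Such placement was frequent among primary tumors: 3 of 11 were closest to their own line, against 41 of 54 transplants.

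**Figure D2:**
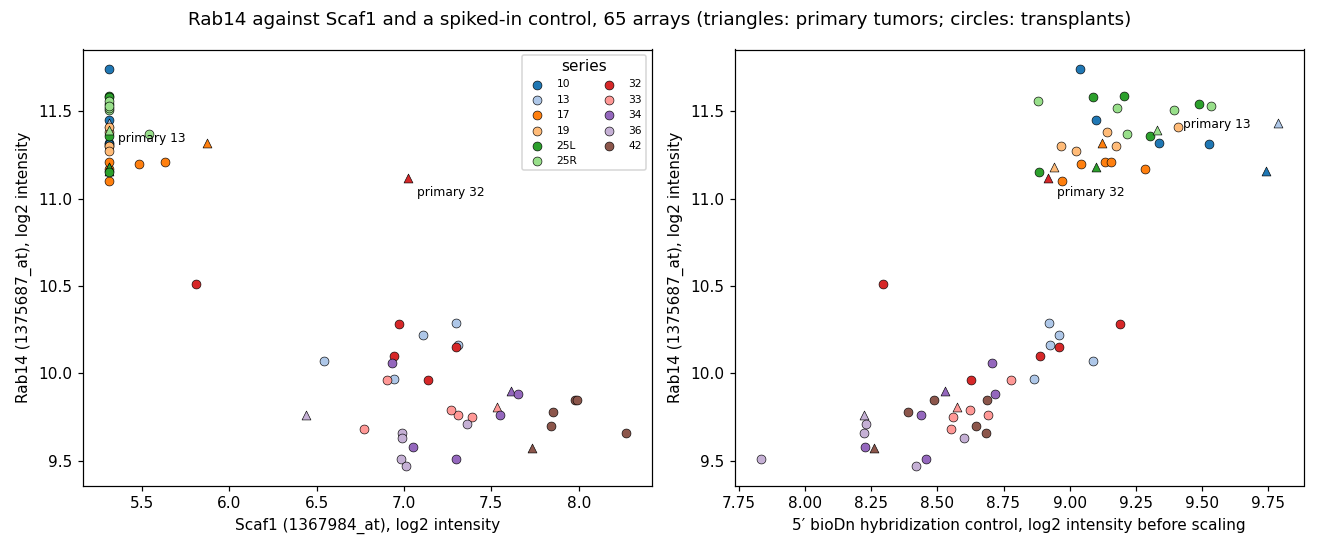
Log2 intensity of Rab14 on 1375687_at (y axis) against Scaf1 (x axis, left) and against the 5′ bioDn hybridization control before scaling (x axis, right), with 1 point per array, colors for the 11 series and triangles for primary tumors. Rab14 falls as Scaf1 rises (r = -0.92, n = 65 arrays) and rises with the control (r = 0.82), and the primary arrays of series 13 and 32 lie apart from their lines.

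Array controls moved with this pair. Hybridization controls such as bioDn are bacterial and phage transcripts spiked into the mixture that is put on the array, so they hold no tumor RNA. Over 65 arrays, r between Rab14 and the 5′ bioDn control was 0.82, and only 3 of the 11899 probe sets tested (0.0252%), Rab14 included, were as far from 0. For Scaf1 r was -0.71, reached or passed by 132 probe sets (1.11%). The control was at 8.88 to 9.74 (log2, before scaling) in series 10, 17, 19, 25L and 25R and at 7.83 to 8.78 in series 33, 34, 36 and 42, with no overlap. In series 13 it was 9.79 in the primary tumor and 8.87 to 9.09 in the transplants. In series 32 the primary array (8.92) lay inside the range of its transplants (8.29 to 9.19). The log2 ratio of the 3′ to the 5′ Gapdh control, a measure of RNA integrity and labelling, had r = -0.63 with Rab14 and 0.50 with Scaf1.

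With the bioDn control as a covariate the share of variance between lines fell to 40.3% for Scaf1 and 25.8% for Rab14. With the Gapdh ratio it was 63.9% and 51.1%, and with the mean of the hybridization controls 74.7% and 66.8%. Of the 18 hybridization control probe sets, the 5′ bioDn control had the r farthest from 0 with both genes. With the mean of the controls r was 0.50 for Rab14 and -0.40 for Scaf1. For Cnot10, Sh3d19, Purb and Fitm1 the shares with the bioDn control were 79.8%, 88.9%, 80.1% and 86.1%. None of the 18 hybridization control probe sets had an r beyond 0.5 in size with any of these 4 genes, against 6 for Rab14 and 4 for Scaf1. The controls of series 42 lay within the range of the other lines: the bioDn control was 8.26 to 8.69 there and 7.83 to 9.79 elsewhere. Its array medians before scaling were low, at 143.4 to 147.1. Only transplant 5 of series 32 (96.1) and of series 34 (143.2) had lower ones. Since the bioDn control itself differs between lines, array processing and tumor line cannot be told apart for Scaf1 and Rab14.

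**Figure D3:**
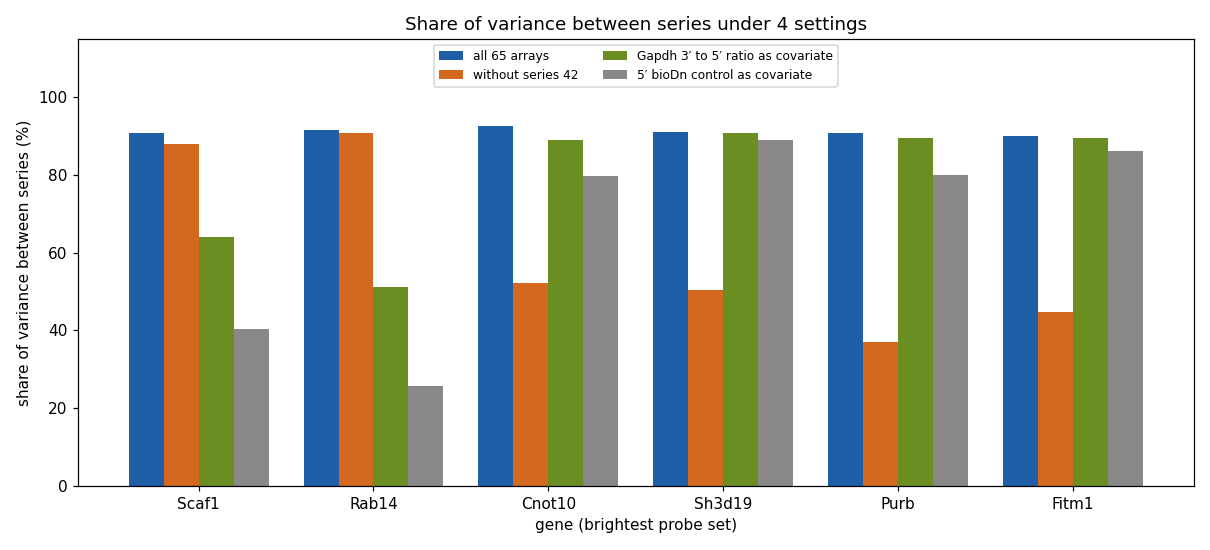
Share of variance between series in percent (y axis, from 0) for the brightest probe set of each gene (x axis), with bars for all 65 arrays, for the arrays without series 42, and with the Gapdh ratio or the 5′ bioDn control as a covariate. Leaving out series 42 lowers Cnot10, Sh3d19, Purb and Fitm1 to between 37.0% and 52.3%, and the bioDn covariate lowers Scaf1 to 40.3% and Rab14 to 25.8%.

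Probe sets of 1 gene were set beside each other to see whether they gave the same pattern. Rab14 has 4. The second, 1367884_at, followed the brightest in direction (r = 0.88 over 11 series means, 0.70 over 65 arrays) with smaller differences: series means ran from 9.01 to 9.74 (log2), and 58.9% of its variance lay between lines. Its r with the 5′ bioDn control was 0.65, reached or passed by 357 probe sets (3.00%). With that control as a covariate its share was 20.7%, so array processing and tumor line cannot be told apart for 1367884_at either. In series 13 its primary array (806) was above the transplants (509 to 715), and in series 32 the primary array (516) lay inside them (452 to 651). The third, 1376796_at, went in the other direction (r = -0.64 over series means). Series 42 was highest, 0.58 (log2) above the mean of the other lines, whose means were 7.29 to 7.61, and its share was 42.6%, or 18.0% without series 42. The last, 1385314_at, was at the floor in 42 of 65 arrays and below the low-value filter. A gap as wide as the brightest probe set's was thus seen on 1 of 4 probe sets of Rab14. Whether the probe sets read different transcripts was not tested.

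**Figure D4:**
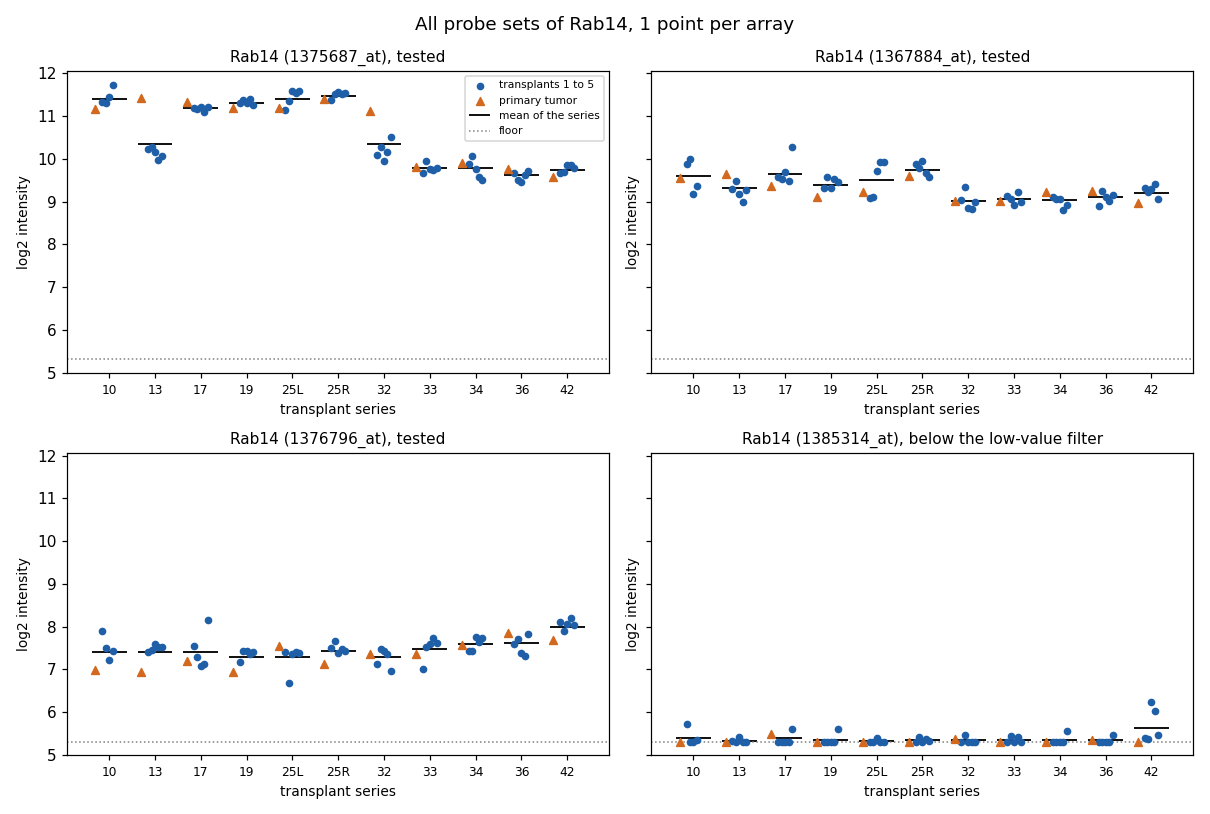
Log2 intensity (y axis) of the 4 Rab14 probe sets in the 11 series (x axis), with 1 point per array, triangles for primary tumors, bars for series means and a dotted line for the floor. Probe set 1375687_at falls into levels near 11 and near 10, 1367884_at shows a narrower range of series means (9.01 to 9.74), 1376796_at is highest in series 42, and 1385314_at lies at or near the floor.

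Purb has 3 probe sets. The dim 1391303_at, at the floor in 16 arrays and below the low-value filter, gave the same separation as the brightest. It read 244, 214, 220, 211, 211 and 224 in series 42 and 20.5 to 111 elsewhere, with a mean of 7.78 ± 0.08 (SD, n = 6 arrays, log2) against 5.39 to 6.20. The other, 1375114_at, did not. Its values in series 42 (178, 170, 180, 147, 146 and 175) lay inside the range of the other arrays (99.3 to 293), and its mean of 7.37 ± 0.14 was below that of series 32 (7.56 ± 0.36; SD, n = 6 arrays each). Over series means r with the brightest was 0.90 for 1391303_at and 0.16 for 1375114_at. Without series 42 the first of these was 0.08 over 10 series means, so the likeness of that pair rests on series 42. Over the same 10 means, 1391303_at had r = 0.86 with Scaf1 and -0.92 with Rab14 on 1375687_at.

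**Figure D5:**
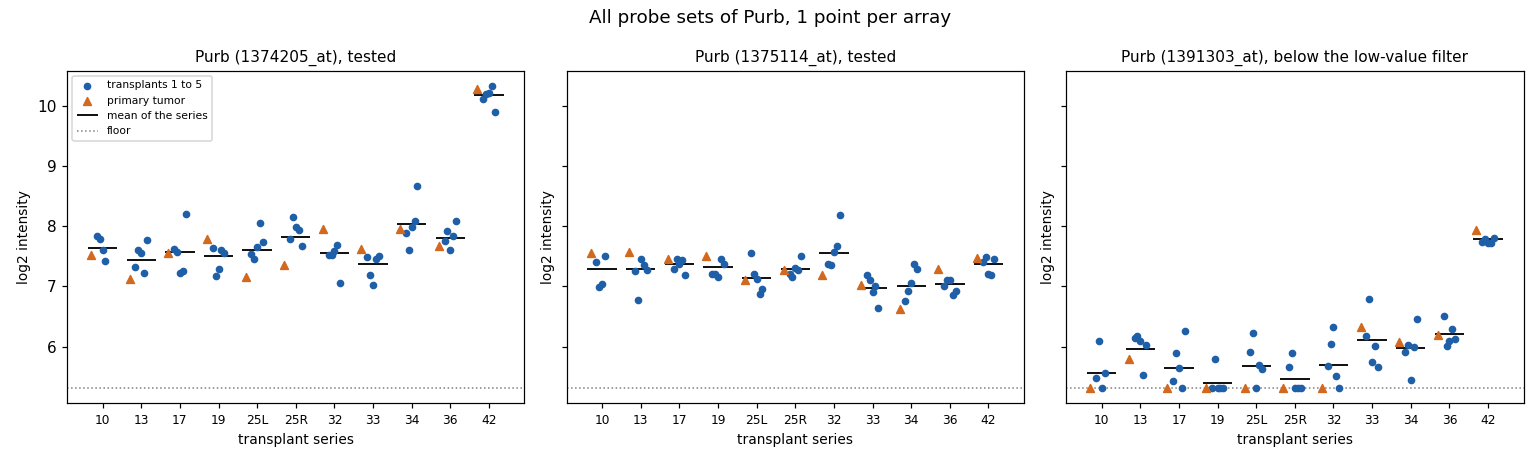
Log2 intensity (y axis) of the 3 Purb probe sets in the 11 series (x axis), with 1 point per array, triangles for primary tumors, bars for series means and a dotted line for the floor. Series 42 is apart on 1374205_at (mean 10.17) and 1391303_at (7.78) but not on 1375114_at (7.37).

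Change with passage was tested within lines, with limma over all 11899 probe sets. A large share of variance between lines leaves little for passage: generation held 0.19% to 1.53% of the variance of the 6 brightest probe sets, against a median of 5.98% over all. The choice of the genes thus bears on these counts, and nothing is read from how they compare with the other probe sets. For the transplants against the primary tumors, 0 of 9 member probe sets passed an adjusted p of 0.05, where 9.34% of all probe sets did (4.40% higher and 4.94% lower). Of the 9, 2 had an unadjusted p below 0.05, and adjusted values ran from 0.129 to 0.793. For transplant 5 against the primary tumors the count was again 0, against 13.2% of all probe sets (6.77% higher and 6.41% lower), with 2 at an unadjusted p below 0.05 and adjusted values of 0.0732 to 0.978. For a slope over transplants 1 to 5 it was 0, against 4.35% (2.03% higher and 2.32% lower), with 0 unadjusted and adjusted values of 0.484 to 0.961. An exact sign-flip permutation test with 1 value per line called 0 of all probe sets in the first 2 comparisons after adjustment, with 2246 and 2459 at an unadjusted p below 0.05. With so few lines the p-values of that test are coarse. A call after adjustment would need many probe sets at its lowest possible p, so its count of 0 does not show that nothing changed. The split of the calls over all probe sets depended on the scaling: 47.1% of those in the transplants and 51.3% of those at transplant 5 were higher, against 29.5% and 17.1% without rescaling. For the slope 46.7% were higher, against 16.1% without rescaling and 35.6% with quantile normalization. Without rescaling, the median difference over all probe sets at transplant 5 moved by -0.11 (log2).

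Sh3d19 had the lowest adjusted p among the members for the transplants. Its mean was 7.66 ± 0.51 in the primary tumors (SD, n = 11) and 7.46 ± 0.68 at transplant 5 (SD, n = 10). The transplants differed from the primary tumors by -0.15 ± 0.06 (SE, log2; limma adjusted p = 0.129) and were lower or equal in 8 of 11 series. Without rescaling of the arrays, Sh3d19 at transplant 5 passed the threshold (-0.31, limma adjusted p = 0.0244), against an adjusted p of 0.118 with it, and over all settings tried that value ran up to 0.740. Rab14 on 1375687_at differed by -0.15 ± 0.08 (SE, limma adjusted p = 0.233). Without the primary arrays of series 13 and 32 the estimate turned to 0.060. Scaf1 differed by 0.12 ± 0.11 (SE, limma adjusted p = 0.557) and turned to -0.045 without the primary array of series 13. The third Rab14 probe set, 1376796_at, had the lowest adjusted p at transplant 5 (0.28 ± 0.11, SE, limma adjusted p = 0.0732), higher in 7 of 10 series. Cnot10, Purb on 1374205_at and Fitm1 differed by -0.03 ± 0.05, 0.06 ± 0.09 and 0.10 ± 0.07 (SE) between transplants and primary tumors.

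The slope over transplants differed among lines for 2 of 9 member probe sets, against 23.5% of all probe sets tested. The 2 were Purb on 1375114_at (limma adjusted p = 0.0117) and Rab14 on 1367884_at (limma adjusted p = 0.0182), neither of which is its gene's brightest. For Purb the slope per transplant ran from -0.16 in series 25L to 0.20 in series 32 (log2). For Rab14 it ran from -0.23 in series 10, with 4 transplants, to 0.25 in series 25L. Without series 25L both calls were lost, at limma adjusted p = 0.0746 and 0.258, which are the highest values over all settings tried (lowest 0.0043 and 0.0031). The brightest Rab14 probe set lay at 0.0507, from 0.0185 to 0.247 over the settings.

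Genes with the most similar order of the lines were named by Pearson's r over the 11 series means. For Scaf1 they were Eif4g1, a scaffold of translation initiation (both of its probe sets, r = 0.99), Kmt5a, C1h19orf12 and Larp1, each at 0.99. The lowest were Mycbp2 (-0.99), Arid1a (-0.98) and Ncoa1 (-0.98). For Rab14 the highest were Ctnnb1, which encodes beta-catenin (0.99), Asxl2 (0.99), Ythdf2, Arid1a and Gosr1 (each 0.98), and the lowest Larp1 (-0.98), Kmt5a (-0.98) and Zfp496 (-0.97). Arid1a, Larp1 and Kmt5a appear on opposite sides of the 2 lists, which follows from the r of -0.96 between Scaf1 and Rab14 over the same series means. For these 2 genes, r mainly reflects the division of the lines, with which the bioDn control also moved. For Ctnnb1, r with Rab14 was also 0.97 over single arrays.

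For the genes that set series 42 apart, r mainly reflects that 1 line. Cnot10 was most like Uqcrc1, a subunit of respiratory complex III (0.99), both Gatad1 probe sets, Rpsa and Opa1 (each 0.98), and least like Tet2 (-0.97), Jup and Tcp11l2 (each -0.96). Sh3d19 was most like Kctd15 (0.98), Ier3, Litaf, Ifitm3 and App (each 0.97), and least like Timm8a1 (-0.98), Fitm1 and Ddx10 (each -0.97). Purb was most like Ankib1 (0.99), Capza2, Msmo1, Itga7 (each 0.98) and Oxsr1 (0.98), and least like Limk2 (-0.99), Src (-0.99) and Sox4 (-0.98). Fitm1 was most like Unc45b, a chaperone of muscle myosin (0.97), Smpd4, Timm8a1 (each 0.97), Mecom and Wfs1 (each 0.96), and least like Ext2, Igsf3 (each -0.98) and App (-0.97). Over single arrays the gene most like Fitm1 was Des, the intermediate filament of muscle (r = 0.89). That look at arrays was added after the values were seen.

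Neighbouring genes were compared in the order of assembly GRCr8, taking the nearest 3 with a tested probe set on each side. Around Cnot10, Ubp1 also had all arrays of series 42 above every other array (mean 9.04 against 7.27 to 8.04), while Glb1, Crtap, Dync1li1, Cmtm6 and Cmtm7 overlapped. Around Purb, LOC102547700 did so (8.71 against 7.07 to 7.71), and Zmiz2, Ogdh, Tmed4, Ccm2 and Tbrg4 overlapped. Around Sh3d19, Trim2 lay below every other array (6.79 against 7.76 to 8.62), and Arfip1, Fhdc1, Rps3a, Lrba and Cd1d1 overlapped. All 6 neighbours of Fitm1 (Dcaf11, Pck2, Dhrs4, Psme1, Psme2 and Irf9) overlapped. The neighbours of Scaf1 (Irf3, Bcl2l12, Cpt1c, Rras, Prr12 and Nosip) overlapped too, with Nosip closest to it at r = 0.91 over series means. Those of Rab14 (Cntrl, Phf19, Psmd5, Gsn, Stom and Ggta1) overlapped, with r from -0.65 to 0.32. Rab14 itself overlapped in series 42, so this measure cannot tell whether its neighbours share its pattern. Over all probe sets tested, series 42 lay above every other array for 2.97% and below for 1.82%. On the chromosome of Cnot10 the share above was 10.1%. Nothing is read from the counts of neighbours.

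Genes that work with the members were described by list. Beside the counts stand the median differences, where all probe sets tested had medians of 0.01 for the transplants and 0.02 for transplant 5. Of the listed genes, 12 passed in the transplants and 15 at transplant 5, over lists of 15, 36, 20, 7, 11 and 11 tested genes. Over all probe sets tested, 9.34% and 13.2% passed, and nothing is read from the counts of the lists. None of the listed genes that passed changed sign under other scalings or floors. Without rescaling 2 and 5 of them lost the call, and 5 at transplant 5 lost it with quantile normalization. Of 15 tested genes of the CCR4-NOT complex and its partners, 0 rose and 1 fell in the transplants (Cnot2, -0.16 ± 0.04, SE), with a median of -0.12. At transplant 5, Cnot9 rose (0.27 ± 0.09), Pan2 (-0.31 ± 0.10) and Edc4 (-0.28 ± 0.09) fell, and the median was -0.09. The call for Cnot9 was lost without rescaling and with quantile normalization, and that for Pan2 with quantile normalization. Of this list, 0 rose and 7 fell at transplant 5 without rescaling, and 0 rose and 1 fell with quantile normalization. None of the 15 set all arrays of series 42 apart as Cnot10 did: the mean of Cnot1, the scaffold of the complex, was 9.04 there and 8.76 to 9.13 elsewhere. By series means alone, series 42 was highest for Patl1 (8.09 against 6.71 to 7.35) and Cnot4. It was lowest for Cnot6, Pan2 (6.32 against 6.78 to 7.31), Pan3 and Ddx6.

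Of 36 Rab GTPases and Rab14 partners, 4 rose (Rab8b by 0.42 ± 0.07, Rab35 by 0.37 ± 0.07, Rab2a by 0.28 ± 0.07 and Rab1a by 0.20 ± 0.05, SE) and 1 fell (Dennd6a, an exchange factor for Rab14, by 0.31 ± 0.09) in the transplants, with a median of 0.06. At transplant 5, Rab1a, Rab2a, Rab8b and Rab35 rose again, as did Rab31 (0.65 ± 0.22), Rab27b (0.38 ± 0.09) and Gdi2 (0.37 ± 0.08), and Dennd6a and Rab4a (-0.64 ± 0.22) fell. These 7 and 2 genes stood beside a median of 0.10, which turned to -0.01 without rescaling, where 4 rose and 5 fell. The calls at transplant 5 for Rab1a and Rab31 were lost without rescaling and with quantile normalization, that for Rab2a without rescaling, and that for Rab4a with a floor at the 25th percentile. Rab3d lay below all other arrays in series 42, at a mean of 6.60 against 8.28 to 8.77. Of 20 splicing factors and genes of the RNA polymerase II tail, Tra2b rose (0.27 ± 0.07), and Srsf5 (-0.30 ± 0.08) and Clk1 (-0.30 ± 0.10) fell in the transplants, with a median of -0.05. At transplant 5, Tra2b rose (0.35 ± 0.09) and Srsf5 fell (-0.38 ± 0.11), with a median of -0.04. The call for Tra2b was lost without rescaling, where 0 rose and 5 fell, and with quantile normalization, where 0 rose and 3 fell.

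Of 7 Pur proteins and partners, 0 rose and 0 fell in either comparison with the primary tumors, with medians of 0.01 and 0.05, which turned to -0.03 and -0.06 without rescaling. Acta2, the smooth muscle actin gene that Purb is known to repress, had a mean of 9.07 in series 42 and 8.92 to 11.37 elsewhere. Of 11 ADAM proteases and SH3 adaptors, Hbegf, a growth factor released by ADAM proteases, rose in the transplants (0.50 ± 0.15) and at transplant 5 (0.89 ± 0.21), 0 fell, and the medians were 0.06 and 0.12. Of 11 lipid droplet genes, Dgat1 rose (0.21 ± 0.05) and Bscl2 fell (-0.20 ± 0.07) in the transplants, with a median of -0.07. Both calls were lost without rescaling. Of the same list, 0 changed at transplant 5, with a median of -0.09. Agpat2 was at 5.34 in series 42, near the floor, and at 7.23 to 7.94 elsewhere. Fitm2, the paralog of Fitm1, did not set series 42 apart, at 7.38 against 7.16 to 7.63.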

How the data were processed

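Total RNA from frozen tumors was labelled with biotin and put on Affymetrix arrays, per the labels' protocols. The deposited values are probe set intensity values on a linear scale from 1 to 12011. The authors' probe summary and normalization are not stated in these sources. Array medians (96.1 to 176) were scaled to 162, values under the pooled 10th percentile were floored, and log2 was taken. The lowest 25% of probe sets by mean log2 (below 6.35) were not tested.

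Series and generation came from the titles. Differences were tested with limma 3.58.1 (R 4.3.3), with generation and series as factors and Benjamini-Hochberg adjustment, and the code was tested on simulated data. Pairing is by series, since the submitters' design has each line passed on from its own primary tumor. Within-series correlation averaged 0.39, and -0.04 between series. Every pair exceeded 0.1 in 3 of 11 series. After the series term, arrays of 1 line were taken as independent.

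The members, lists and tests were chosen with earlier results of these data known. All probe sets of the members were named, with their 5 most and 3 least similar genes and 3 neighbours per side. Listed genes were named where they were called in the transplants or at transplant 5, and those called for a slope were not all named. Platform symbols were updated through GRCr8 identifiers, of which 12748 matched, while 312 probe sets had several symbols and 2771 none. The number of arrays limits precision, as does signal over background for dim probe sets.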

Additional observations from a re-analysis of the deposited data

Results flagged for a closer look

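Single arrays stood apart from the rest of their group by Dixon's test in 10 of 69 groups of up to 10 arrays whose values varied. Values are log2 intensities. Scaf1 was at 5.54 in transplant 1 of series 25R, whose other arrays were all raised to the floor, so that any value above it stands apart by construction. It was at 5.81 in transplant 5 of series 32, below the rest of that line. Rab14 on 1375687_at was at 11.43 in the primary tumor of series 13, above its transplants. Cnot10 was low in transplant 2 of series 10 (7.61) and in the primary tumor of series 19 (7.78). Sh3d19 was high in transplant 4 of series 32 (8.31), and Fitm1 was low in the primary tumor of series 33 (6.06). Among the 10 tumors of transplant 5, the array of series 42 stood apart for Cnot10 (9.39), Sh3d19 (5.67) and Fitm1 (8.33), as in that line's other generations. These genes were chosen for their spread between lines, so this restates the choice. Over groups of 1 series with no value at the floor, 6 of 59 had such an array, where chance gives about 1 in 20.

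The slope over transplants differed among lines for Rab14 on 1367884_at (limma adjusted p = 0.0182) and for Purb on 1375114_at (limma adjusted p = 0.0117). Both calls were lost without series 25L (limma adjusted p = 0.258 and 0.0746). They are 2 of 9 member probe sets, against 23.5% of all probe sets tested, and nothing is read from their count.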

How the results depend on the processing

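All settings were compared over the same arrays unless one is named as left out. The replicate block is the tumor series: without it 105 probe sets passed in the transplants, 40 at transplant 5 and 0 for the slope (1263 at an unadjusted p below 0.05 by limma), against 1111, 1568 and 518 with it. With 1 value per series, an exact sign-flip permutation test called 0 in the transplants and 0 at transplant 5, where its coarse p-values limit calls after adjustment. The Gapdh ratio as a covariate gave 591 in the transplants. The mean of the hybridization controls as a covariate gave 393 there and 752 at transplant 5. Without the low-value filter 329 passed for the slope. Leaving out the primary array of series 32 gave 659 in the transplants, and leaving out those of series 13 and 32 gave 486 and, at transplant 5, 922. Leaving out 1 series at a time gave 668 (without 25R) to 1150 in the transplants, 1067 to 1697 at transplant 5, 7996 to 10250 for differences among series, and 1111 (without 25L) to 3109 for slopes that differ among series, from 2800. The slope count ran from 7 to 1018 and moved over 1.5-fold without series 25L (1018), 32 (14), 33 (928), 34 (7) or 36 (9).

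Of the members' tested differences under other settings, 273 kept their direction and side of the threshold, 18 changed sign and 1 passed. At transplant 5, Fitm1 turned to -0.014 without rescaling, -0.026 with the mean of the hybridization controls and -0.016 as the mean of 1 value per series. It ran there from -0.019 to 0.14 with 1 series left out. Scaf1 turned there to -0.0079 with a floor at the 25th percentile, -0.15 without the primary array of series 13 and -0.14 without both primary arrays, and ran from -0.11 to 0.15 with 1 series left out. In the transplants Scaf1 was -0.045 and -0.030 without those arrays and ran from -0.044 to 0.17. Cnot10 turned to 0.015 in the transplants with the mean of the hybridization controls and to 0.0019 without both primary arrays. Without those arrays Rab14 on 1375687_at was 0.060 in the transplants and 0.082 at transplant 5. No member difference passed on either side of these changes. For the filter at the median, 1375114_at of Purb (mean 7.24) gave no value, nor did Scaf1 (6.37) and Fitm1 (6.58), whose mean levels are lower. The settings for the hybridization controls, bioDn among them, and for the primary arrays were chosen after seeing the data. The causes were not tested. Dim probe sets near the floor, such as that of Scaf1, are limited by signal over background.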

Other observations

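Several genes that tell series 42 from the other lines share chromosomes in assembly GRCr8. This look was chosen after the values were seen, and it is given as a description with no test. Of 576 tested probe sets annotated to the chromosome of Cnot10, 58 (10.1%) had all 6 arrays of series 42 above every other array, and 11 (1.91%) had them below. Over 9927 tested probe sets with a chromosome these shares were 3.01% and 1.80%. The chromosome of Ankib1, Gatad1, Capza2 and Cd9, the first 3 of which followed Cnot10 or Purb, had 49 of 563 above (8.70%) and 9 below (1.60%). Cd9 went the other way, with a mean of 5.66 in series 42 against series means of 10.42 to 11.21 elsewhere (log2). For the chromosomes of Purb and Fitm1 the shares above were 2.49% and 2.48%, and for that of Sh3d19 the share below was 3.42%. Among genes like Cnot10, Uqcrc1 and Rpsa lie on its chromosome, as does its neighbour Ubp1. Amotl1, on the same chromosome, was low in series 42, at a mean of 5.72 against 8.78 to 9.24 (log2). The copy number of these chromosomes was not analysed here.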
